A study of Mus musculus with 2 samples.

Results

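The 80 genes described here encode the proteins of the cytosolic ribosome. They were chosen by name, as every row of the deposited tables whose mouse symbol is Rpl or Rps with a number and at most 1 further letter, or is Rplp0, Rplp1, Rplp2 or Rpsa. Rows named as pseudogenes and the Rps6k kinases stayed out, so 80 of 31053 gene rows were taken. Of these, 49 belong to the large subunit, among them the 3 P-stalk genes, and 31 to the small subunit. Genes such as Rps3a1 and Fau, which also encode ribosomal proteins, fall outside the naming rule and were kept apart as neighbours.

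The genes were measured by single-cell RNA sequencing of dissociated, handpicked pancreatic islets from wild-type mice of the NOD/ShiLtJ strain, in which immune cells enter the islets and diabetes of the autoimmune type develops. All mice were 15 weeks old, and they ate a diet with 20% of a component that the labels write as HC, or one with 16% HC and 4% gluten. Each diet had 1 library, made from pooled cells of 3 mice. The spread between mice is therefore unknown, no difference between the diets was tested, and every interval below covers counting error only. The library with gluten comes first wherever 2 values stand side by side, and a log2 ratio divides its value by that of the HC-only library.

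A ribosome is built from ribosomal RNA and about equal numbers of each ribosomal protein, with the small subunit reading the mRNA and the large subunit joining amino acids. The mRNAs for these proteins are among the most abundant in a cell, and many begin with a C followed by a run of C and T bases, the terminal oligopyrimidine tract through which mTOR and Larp1 set their translation. Resting lymphocytes are small cells with little other mRNA, whereas endocrine, acinar and plasma cells fill much of their mRNA with a few secreted products.

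The stretch around the transcription start is where such a tract would lie, and it is shown for 10 genes on which the results below turn. Each run holds 20 bases before the annotated start and 10 from it on, read in the direction of the gene (RefSeq, GRCm38.p6), with the longest run of C and T in capitals.
Rps27, chr3:90213639-90213668, minus strand: acaggatttccgctttcgCTCCTTTCCggc
Rpl35, chr2:39005122-39005151, minus strand: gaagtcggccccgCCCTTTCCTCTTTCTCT
Rps6, chr4:86857358-86857387, minus strand: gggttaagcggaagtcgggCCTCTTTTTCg
Rps26, chr10:128626497-128626526, minus strand: agcgggtcgggcaagccgccggaTCCTCTT
Rps27l, chr9:66946066-66946095, plus strand: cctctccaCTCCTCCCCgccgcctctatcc
Rpl39, chrX:37085213-37085242, minus strand: CCCCCCCTaagctccgcctctagcgacttc
Rpl37, chr15:5116593-5116622, plus strand: gaagtagTTTCCTgggcggaagcttatcca
Rpl41, chr10:128549159-128549188, minus strand: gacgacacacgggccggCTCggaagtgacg
Rps28, chr17:33824553-33824582, minus strand: tcctgggtaccgcgtgcggTCTCgcgagag
Rpl10, chrX:74270796-74270825, plus strand: ctatggttgttacagtggaagataggCCgc

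In Rps27, Rpl35 and Rps6 the run crosses the start, while in Rps27l, the paralog of Rps27, it ends before the start. Rpl10 has no run longer than 2 bases, and no run covers the start in Rps26, Rpl37, Rpl41 or Rpl10. Promoters were found for 60 of the 80 genes, and a C/T run of 8 or more bases lay within these 30 bases in 41.7% of them, against 12.1% of 17492 protein-coding promoters. A C stood at the annotated start in 31.7% against 13.7%. Over the 250 bases before and 50 bases after the start, CCGGAAG or its reverse complement CTTCCGG, the core of an ETS factor motif, was present in 40.0% against 11.8%. AAGATGG or CCATCTT, a YY1 core, was present in 15.0% against 6.29%, and GGGCGG or CCGCCC, an SP1 core, in 58.3% against 45.9%. TATAAA or TTTATA stood in 10.0% against 13.4%. A match is a stretch of letters at an annotated start and not a site shown to be used.

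Reads of this assay come from the 3′ ends of transcripts, and many ribosomal protein genes have processed copies elsewhere in the genome. For 53 of the 80 genes, at least 50% of the 60-base stretches in the last 300 bases of a coding transcript also stand in a transcript of another annotated gene, and 11 genes share none. Counts of such genes can be split or lost between copies, and they are reported as uncertain for that reason. Their share is given wherever a result turns on them.

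The libraries held 8200 and 7758 barcodes with 88268070 and 116900677 UMIs, the molecules counted by unique molecular identifiers, and 15 barcode sequences occurred in both. After filtering, 7127 and 7116 cells remained, with median depths of 6396 and 5463.5 UMIs. Cells were put into classes by markers, none of which is a ribosomal protein gene, and 1169 (16.4%) and 731 (10.3%) cells stayed without a class. Statements over classes concern 12 classes, 6 of them immune, for which both libraries held 50 cells or more. The plasma-like, ductal-like, mature dendritic-like, pDC-like, Schwann-like and acinar-like classes were smaller in at least 1 library, and some of their values are given apart. No ribosomal protein gene was among the 10 genes that set any class apart by fold. The PP-like class had 3 of its own markers and 2 alpha markers among those 10, so by this count it is the least distinct of the 12. Among the smaller classes, the Schwann-like and plasma-like had 1 own marker among their 10 and the ductal-like 2. Schwann-like cells held a median of 191 macrophage-marker UMIs per 10000 and 16.1 of their own. Insulin and other beta markers were detected in every class, at 115 UMIs per 10000 in T-like cells, which is RNA those cells are not known to make.

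Among the 12 classes, ribosomal protein mRNA took its smallest share of a cell's UMIs in beta-like cells and its largest in lymphocytes. The 24 and 25 acinar-like cells, outside those classes, held 5.49% and 2.99%, above beta-like cells with gluten and below them with HC alone. The 80 genes made up 3.45% and 3.47% of UMIs in beta-like cells, which make insulin, and 28.4% in B-like cells of either library. B-like cells thus held an 8.22-fold and 8.18-fold larger share than beta-like cells. The other endocrine classes lay between them, with 11.5% and 10.1% in glucagon-making alpha-like cells, 10.4% and 9.33% in somatostatin-making delta-like cells, and 8.33% and 7.35% in PP-like cells. Endothelial-like cells held 12.5% and 13.3%, mesenchymal-like cells 13.9% and 14.6%, and macrophage-like cells 15.2% and 14.5%. Conventional dendritic cells came next, with 20.0% and 20.8% for the cDC1-like and 20.8% and 20.4% for the cDC2-like class. NK-like cells held 24.1% and 25.8%, and T-like cells 27.1% and 28.7%. The order from beta to lymphocyte was the same in both libraries, except for 3 neighbouring pairs that changed places: mesenchymal-like and macrophage-like, cDC1-like and cDC2-like, and T-like and B-like cells. Counting intervals were narrow, 23.9% to 24.2% in the NK-like class with gluten, and say nothing of how mice differ.

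**Figure D1:**
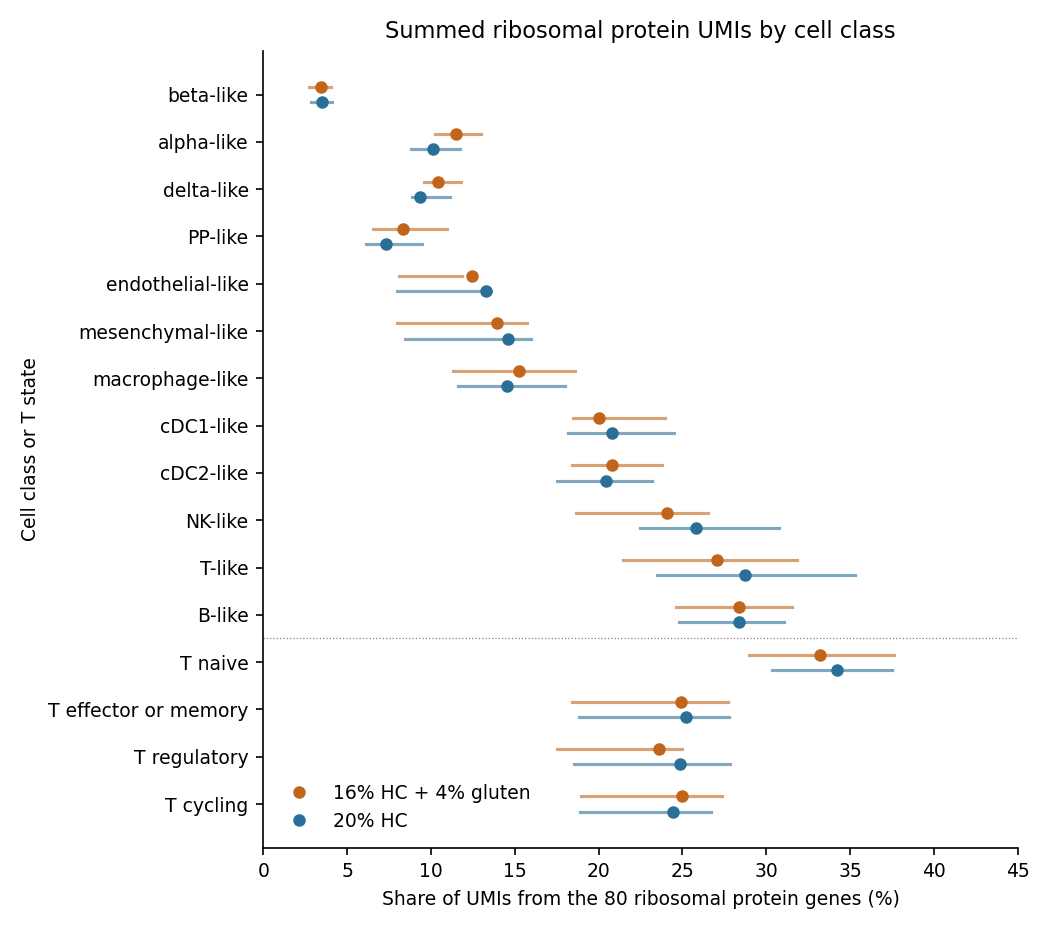
Share of UMIs from the 80 ribosomal protein genes (x axis, %) in 12 marker-gated cell classes and 4 T cell states, for the library with gluten (orange) and with HC alone (blue). Points are shares of the summed UMIs, and lines span the middle quartiles of single cells. Beta-like cells sit near 3.5% in both libraries, and naive T cells lie highest at 33.2% and 34.2%.

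The distance between endocrine cells and lymphocytes was smaller once a few very abundant mRNAs were taken out of the total. Hormone, acinar, immunoglobulin and mitochondrial genes held 69.2% and 69.4% of UMIs in the beta-like class, 39.9% and 43.4% in the alpha-like and 8.59% and 6.995% in the B-like class. With those genes left out of the total, the ribosomal protein share was 11.2% and 11.4% in beta-like, 19.2% and 17.9% in alpha-like and 31.1% and 30.5% in B-like cells. B-like cells were then 2.77-fold and 2.69-fold above beta-like cells. Plasma-like cells, 54 and 24 in number, held 10.7% and 8.65%, against 20.8% and 19.1% without the same genes. B-like cells exceeded them 2.66-fold and 3.28-fold, and 1.49-fold and 1.59-fold without those genes. The share is relative: beta-like cells were the deepest, with medians of 27618 and 37214 UMIs, and the median beta-like cell held 944 and 1234 ribosomal protein UMIs against 623 and 753 in the median B-like cell. The class with the smaller share thus had the larger number of counted molecules per cell.

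Among T-like cells the share differed between states. Naive cells, set by markers such as Lef1 and Ccr7, held 33.2% and 34.2%, the highest level of any class or state. Effector or memory cells held 24.9% and 25.2%, regulatory cells 23.6% and 24.8%, and cycling cells 24.99% and 24.5%. Naive cells were 1.33-fold and 1.36-fold above effector or memory cells. Median depths of those states were 2145 and 2542.5 UMIs against 2353 and 3005, and with naive cells thinned to 1915 and effector or memory cells to 1890 UMIs the per-cell medians were 35.9% and 35.4% against 24.8% and 24.3%. Cycling cells were far deeper, with medians of 9458 and 14626 UMIs, and so held more ribosomal protein UMIs per cell, 2400 and 3035, at a share close to that of effector cells.

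The mix of ribosomal proteins also differed between the states. The split into states used none of these genes. As a share of all ribosomal protein UMIs, Rps27l, a p53-inducible paralog of Rps27, stood at 0.289 and 0.262 per 1000 in naive cells and 0.727 and 0.658 per 1000 in effector or memory cells. Naive cells were thus lower by a log2 of -1.33 in both libraries. Rps27 itself lay the other way, at 18.7 and 17.1 per 1000 in naive and 15.6 and 13.8 in effector or memory cells. Rps19, a small-subunit protein mutated in Diamond-Blackfan anaemia, was likewise higher in naive cells, with a log2 of 0.33 in both libraries. Rpl41, the shortest of the ribosomal proteins, was lower in naive cells, by a log2 of -0.30 and -0.37. These 4 genes were named after their values were seen, and the next largest difference after Rps27l was that of Rpl37a with gluten, a log2 of -0.41.

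Across the 12 classes most ribosomal protein genes kept nearly constant proportions to each other. The ratio of a gene's highest to its lowest class share of ribosomal protein UMIs had a median of 1.47-fold in the library with gluten, and genes among the 12 with the widest ranges are described next. The small subunit's part of the UMIs ran from 41.9% in beta-like cells of either library to 46.7% and 46.6% in B-like cells. It was 43.1% in alpha-like cells, 45.6% in macrophage-like cells of both libraries and 46.1% and 46.5% in T-like cells. The proportions below do not depend on hormone mRNA, because only ribosomal protein UMIs enter the total.

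Rps27l varied most over the 12 classes, 6.68-fold with gluten and 8.67-fold with HC alone. It took 3.27 and 3.56 per 1000 ribosomal protein UMIs in beta-like cells, between 2.14 and 2.47 in the other endocrine classes, and 1.85 and 1.87 in macrophage-like cells. T-like cells had 0.796 and 0.660 and B-like cells 0.490 and 0.410, the extremes of those ranges. The gene (ENSMUSG00000036781, chr9:66946086-66949516, plus strand) shares 18.7% of its transcript end. Of the UMIs of Rps27l and Rps27 together, Rps27l held 22.0% and 27.0% in beta-like cells and 2.64% and 2.52% in B-like cells. The endocrine and immune ranges of this percentage overlapped, since cDC1-like cells reached 17.4% and 19.0% and delta-like cells stood at 14.5% and 18.7%. The 54 and 35 ductal-like cells had 23.9% and 29.7%, about as much as beta-like cells. Among the smaller classes, acinar-like cells had 5.33 and 6.25 per 1000 ribosomal protein UMIs and mature dendritic-like cells 4.77 and 5.46, above beta-like cells in both libraries. An immune class thus stood above every endocrine class for this gene.

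A pair of genes was lower in endocrine than in immune cells. Rpl39, which lines the tunnel through which the new peptide leaves, held 5.64 and 5.62 per 1000 in alpha-like cells and 12.8 and 12.2 in macrophage-like cells, with beta-like cells at 9.76 and 9.13. Rps26, at the mRNA exit of the small subunit, stood at 5.03 and 4.79 in beta-like and 9.59 and 9.64 in cDC1-like cells. Both genes were lower in all 4 endocrine classes than in each of the 6 immune classes, in both libraries. Low levels were not confined to endocrine cells. The small ductal-like class lay within the endocrine range, with 9.30 and 8.92 for Rpl39 and 5.63 and 4.84 for Rps26. Acinar-like cells had 7.22 and 6.84 for Rpl39, within that range, but 11.4 and 9.49 for Rps26, above it.

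Rpl10 led the genes with the opposite pattern. It completes the large subunit late in its assembly, next to the catalytic centre. It held 26.8 and 29.9 per 1000 in delta-like and 24.99 and 27.0 in beta-like cells, against 8.95 and 10.0 in T-like and 9.89 and 11.3 in B-like cells. Rpl10 (chrX:74270812-74273135) shares all of its transcript end with other genes, 12 in number, and only 1 of those, Rpl10-ps3, has a row in the tables, with 3445 UMIs against 289123. Rpl41 stood at 22.4 and 24.1 in beta-like and at 8.87 and 8.94 in B-like cells, and it shares 57.3% of its end. Rpl31 had 4.11 and 4.21 in beta-like and 2.17 and 2.36 in B-like cells. Rpl10, Rpl41 and Rpl31 were each higher in every endocrine class than in the 6 immune classes. The smaller immune classes departed from this. Rpl31 had 4.86 and 7.95 in pDC-like cells, above every endocrine class. Plasma-like cells with HC alone had 20.4 for Rpl10 and 16.4 for Rpl41, within the endocrine range, and with gluten 14.5 and 14.2, below it.

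Lymphocytes stood out in a further set. Rpl12, at the base of the stalk, held 15.7 to 18.9 per 1000 in NK-like, T-like and B-like cells and 9.14 to 11.98 in the other 9 of the 12 classes. The smaller classes reached higher, with 12.6 and 12.96 in pDC-like, 12.1 and 13.5 in plasma-like and 11.7 and 16.0 in acinar-like cells. Rps15a was highest in T-like cells, at 20.7 and 18.9, and lowest in beta-like cells, at 11.6 and 10.6. Rps27 was highest in B-like cells, at 18.1 and 15.8, and lowest in macrophage-like cells, at 9.59 and 7.96. Of the P-stalk genes, which recruit elongation factors, Rplp1 was lowest in delta-like cells, at 12.6 and 13.4, and highest in mesenchymal-like cells, at 26.5 and 22.4. The few acinar-like cells lay outside some of these ranges, with Rps27 at 7.10 and 6.31 and Rplp1 at 25.1 and 32.8. Rpsa, known also as a laminin receptor, had 29.9 and 28.1 in T-like and 16.3 and 18.1 in endothelial-like cells. Rps6, the substrate of the S6 kinases, had 14.4 and 14.7 in beta-like and 9.50 and 9.53 in B-like cells.

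**Figure D2:**
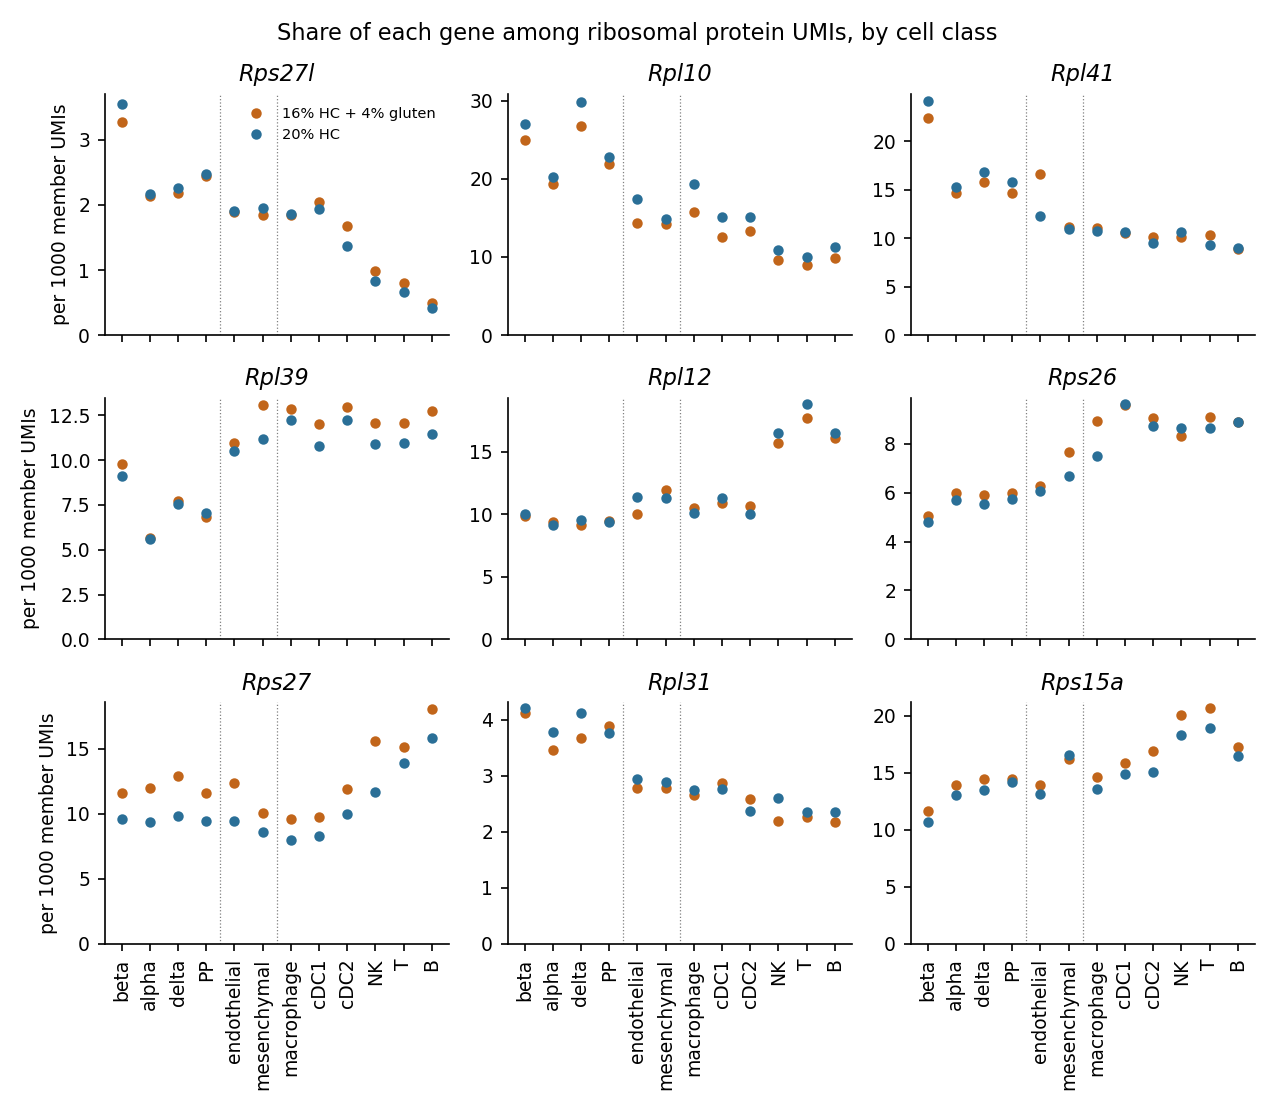
UMIs of each gene per 1000 ribosomal protein UMIs (y axis, from 0) in 12 cell classes (x axis) for 9 of the 12 genes that varied most between classes. Orange is the library with gluten and blue the library with HC alone, and dotted lines part endocrine, stromal and immune classes. Rpl10, Rpl41 and Rpl31 lie higher in every endocrine than in every immune class plotted, and Rpl39 and Rps26 lie lower.

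In all, 18 genes took a larger share of ribosomal protein UMIs in every endocrine class than in each of the 6 immune classes of both libraries, and 11 did the reverse. Among 497 genes measured in all of these classes, 23.9% and 6.84% did so on the same scale. The 18 genes include Rpl29, which is not among the 76 ribosomal protein genes measured in this way. Their number is near the background, and 11 of 76 is above it. The other 51 of the 80 overlapped or were too low. Set instead against the median gene of each class, 0 genes were higher in all endocrine classes (background 13.1%) and 9 were higher in all immune classes (15.5%). The direction between cell types thus depends on the total used, and the proportions above are within the ribosomal proteins only.

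Tissue-restricted paralogs were almost silent. Rpl10l, known from testis, had 0 UMIs in 7127 and 7116 cells, which allows up to 0.0384 and 0.0283 CPM at 3 counts per library. Rpl3l, a muscle form of Rpl3, had 18 and 6 UMIs, and none in any endocrine class. Its highest level was in the small pDC-like class, at 32.8 and 6.25 CPM. Rpl39l, a testis-enriched form of Rpl39, had 15 and 64 UMIs, of which 5 and 41 were in T-like cells, or 0.0521% and 0.194% of the UMIs of Rpl39 and Rpl39l. The other 77 genes reached 50 UMIs in at least 1 class, and 76 did so in all 12. Rps4x, the X-linked form of Rps4, varied little, from 18.6 to 25.5 per 1000. Rpl3 ran from 10.2 to 15.9.

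Paralogs outside the naming rule also differed by cell type. Rpl22l1 held 51.5% to 58.8% of the UMIs of Rpl22 and Rpl22l1 in endocrine classes and 24.9% to 40.8% in the 6 immune classes, without overlap. Rpl22 itself was among the 11 genes with a lower share in all endocrine classes. Rpl36al, a retrogene copy of Rpl36a, held 36.3% and 53.0% of the pair in beta-like cells and 10.8% and 14.8% in B-like cells. The Rpl36al percentage was lower with gluten in each of the 12 classes, a difference between the libraries that returns below.

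Read over the 12 classes and 2 libraries, 24 points in all, single ribosomal protein genes followed the sum of all of them closely. Pearson's r of log2 CPM with the sum had a median of 0.98 over the 77 genes. Rps27l was the least alike, with r of 0.38, followed by Rpl10 with 0.85. Among 2322 other genes, Rack1, a scaffold on the small subunit, was most alike with r of 0.99, followed by Eef1a1, which brings aminoacyl-tRNA to the ribosome. Eif3h, Eif3f, Tpt1, Naca, Cct2, Hnrnpa1, Gm11808 and Eif3e completed the 10 closest. Rack1 stood at 301 and 318 CPM in beta-like and 3371 and 3614 in B-like cells. These are descriptions over points that share libraries and the class totals.

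Between the diets the summed ribosomal protein share differed little in any class, by at most 0.18 on the log2 scale. It was higher with gluten in alpha-like cells, with a log2 ratio of 0.18 (95% counting interval 0.18 to 0.19), in PP-like cells with 0.18 (0.17 to 0.19) and in delta-like cells with 0.16 (0.15 to 0.16). These are folds of 1.14, 1.13 and 1.12. Beta-like cells stood at -0.01 and B-like cells at 0.00. Macrophage-like and cDC2-like cells had 0.07 and 0.03, cDC1-like and mesenchymal-like cells -0.05 and -0.07, and endothelial-like and NK-like cells -0.09 and -0.10. Under every scaling, filter and class rule tried, the alpha, delta and PP ratios stayed above 0 and the T and endothelial ratios below 0. All 7 other classes took both signs under some setting. As an example, mesenchymal-like cells went to 0.01 under TMM scaling and to 0.11 with cells thinned to 1 depth. TMM moved the median gene by over 0.1 in cDC2-like cells alone, by 0.11, and the ratio there was then 0.14.

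**Figure D3:**
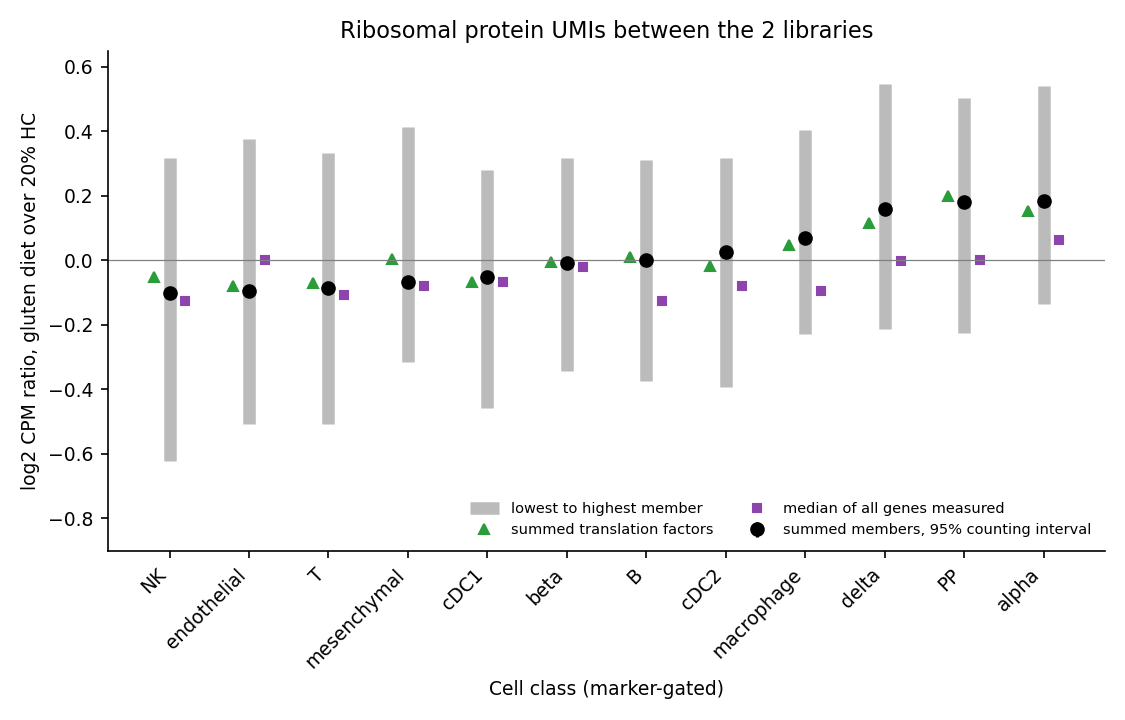
Log2 CPM ratio of the library with gluten over the library with HC alone (y axis) by cell class. Black points are the summed ribosomal protein genes with 95% counting intervals, grey bars run from the lowest to the highest single gene, green triangles are summed translation factors and purple squares the median of all genes measured. Alpha-like, PP-like and delta-like cells lie at 0.18, 0.18 and 0.16, and the other classes lie between -0.10 and 0.07.

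In the 3 non-beta endocrine classes nearly the whole set lay on 1 side. In alpha-like cells 72 of 77 measured genes had a ratio above 1, against 59.5% of all 9381 genes measured there. In delta-like cells it was 70 of 77 (background 49.8%) and in PP-like cells 72 of 77 (50%). The shift was small for each gene: 10, 9 and 8 of 77 were at least 1.25-fold higher, beside backgrounds of 18.6%, 12.8% and 15.6%, and 0 were 1.25-fold lower (9.93%, 11.6% and 13.9%). The median ribosomal protein gene had a log2 ratio of 0.17, 0.15 and 0.19 there, against 0.06, -0.00081 and 0.00057 for the median of all genes. Depth and the dominant genes also differed in these classes, and their part in the ratios was not tested. Median depth was lower with gluten, at 9445 against 13462 UMIs in alpha-like, 8255 against 10850 in delta-like and 13335 against 17144 in PP-like cells, and hormone and the other dominant genes filled 39.9% against 43.4% of UMIs in alpha-like cells. With the dominant genes out of the total, the ratios were 0.10, 0.13 and 0.15, and with cells thinned to 1 depth 0.18, 0.11 and 0.17. As a mean over cells they were 0.12, 0.07 and 0.06. In delta-like cells set by Leiden clusters the ratio was 0.33, and it was 0.10 without cells that carried acinar RNA.

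Beta-like cells, with 1215 and 1573 cells the deepest class, had a summed ratio near 0. Of 77 genes, 34 had a ratio above 1 (background 46.5%), 0 were 1.25-fold higher (9.87%), and 1 was lower (9.98%), Rplp0 at 460 and 583 CPM.

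The T-like class as a whole stood at -0.09 (-0.09 to -0.08), with 61 of 77 genes below 1 against a background of 64.8%. The makeup of the class also differed between the libraries. Naive cells were 24.5% of T-like cells with gluten and 42.2% with HC alone, and effector or memory cells 34.1% and 22.2%. Within states the ratio was -0.04 in naive, -0.02 in effector or memory, -0.07 in regulatory and 0.03 in cycling cells, and -0.09 in T-like cells of no state. Each named state lay closer to 0 than the class did. In B-like cells 38 of 77 genes were above 1, where the background was 34.6%, and in macrophage-like cells 59 of 77 against 37.6%. The median gene lay at -0.13 and -0.10 in those 2 classes. The count minimum applied to the library with the higher CPM, and the HC-only library was larger in both classes. The same held in T-like cells, with 2932148 UMIs against 6705996 with HC alone. Genes of low count thus entered more easily when lower with gluten. That pulls these medians and backgrounds down, and the T-like background of 64.8% below 1 up. TMM scaling raised the log2 ratios by less, 0.07 in B-like and 0.04 in macrophage-like cells. How far the ribosomal protein genes stood above the typical gene there is therefore not settled by the medians.

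Ratios of single genes between the libraries stayed under 2-fold. Over the 923 pairs of a gene and a class that could be measured, 35 were at least 1.25-fold higher with gluten, against 13.5% of all such pairs, and 27 were at least 1.25-fold lower, against 17.7%. None was 2-fold apart, where the backgrounds were 1.84% and 1.53%. These backgrounds include many genes of lower count than the ribosomal protein genes.

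Some genes nonetheless lay on the same side of the summed ribosomal proteins in all 12 classes. There were 9 above it, Rpl35, Rps27, Rpl37a, Rpl37, Rpl36, Rpl36a, Rps21, Rps19 and Rpl23, and 10 below it, Rps28, Rpl23a, Rplp0, Rpl27, Rps2, Rpl5, Rpl10, Rps29, Rpl24 and Rpl6. That is 9 and 10 of 76 genes, against 5.94% and 5.03% of 775 genes measured in all classes. On the CPM scale without that centring, 6 were higher in all 12 classes and 4 lower, which is near the backgrounds of 7.35% and 5.42%.

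Rps27 had the highest single ratios of the set, in delta-like and alpha-like cells. Its level was 1377 and 947 CPM in alpha-like cells, 1342 and 918 in delta-like, 964 and 690 in PP-like, 399 and 333 in beta-like, 3751 and 3009 in NK-like and 5130 and 4499 in B-like cells. The log2 ratios were 0.54 (0.50 to 0.58) in alpha-like, 0.55 (0.49 to 0.60) in delta-like and 0.26 (0.23 to 0.29) in beta-like cells, and 0.03 in T-like cells, where the interval reached 0. Relative to the summed genes it was higher in 12 of 12 classes, with a median of 0.27. Rps27 shares its whole transcript end with 7 other genes. The row of Rps27rt, 1 of these, held 6475 UMIs against 196655 and was lower with gluten in 11 of 12 classes, and with both rows pooled the median was 0.25 and still above 0 in all 12.

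Rps28, a small-subunit protein near the mRNA exit, lay farthest below the sum by its median over classes. It stood at 856 and 1217 CPM in T-like, 879 and 1130 in B-like, 741 and 1114 in NK-like and 123 and 148 in beta-like cells. The ratios were -0.51 (-0.57 to -0.44), -0.36, -0.59 and -0.27, and all 12 classes were below 0. Rpl23a, beside the peptide exit, had 1274 and 1701 CPM in T-like and 502.6 and 552 in alpha-like cells, with ratios of -0.42 and -0.14. The transcript ends of Rps28 and Rpl23a are shared to 73.1% and 80.1%. Rplp0, the core of the P-stalk, had 460 and 583 CPM in beta-like and 3317 and 4624 in NK-like cells, ratios of -0.34 and -0.48, and it shares 67.6%.

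Rpl37a is the clearest case with an end of its own, sharing 0.415%. Its level was 1524 and 1148 CPM in alpha-like, 450 and 396 in beta-like, 2916 and 2524 in T-like and 3031 and 2745 in B-like cells. The log2 ratios were 0.41, 0.19, 0.21 and 0.14, each with an interval above 0, and relative to the sum they ran from 0.14 to 0.36 over the 12 classes. Rpl35, next to the peptide exit, had 455.5 and 331 CPM in alpha-like and 1124 and 994 in T-like cells, with ratios of 0.46 and 0.18 and 95.9% of its end shared. Rpl5, which carries ribosomal 5S RNA and binds Mdm2 when ribosome assembly fails, was lower with gluten in several classes, at 2482 and 3186 CPM in T-like and 1401 and 1897 in cDC1-like cells. Its ratios there were -0.36 and -0.44, and -0.34 in endothelial-like and -0.15 in mesenchymal-like cells, against 0.12 in alpha-like and -0.02 in both beta-like and macrophage-like cells. Its whole end is shared.

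**Figure D4:**
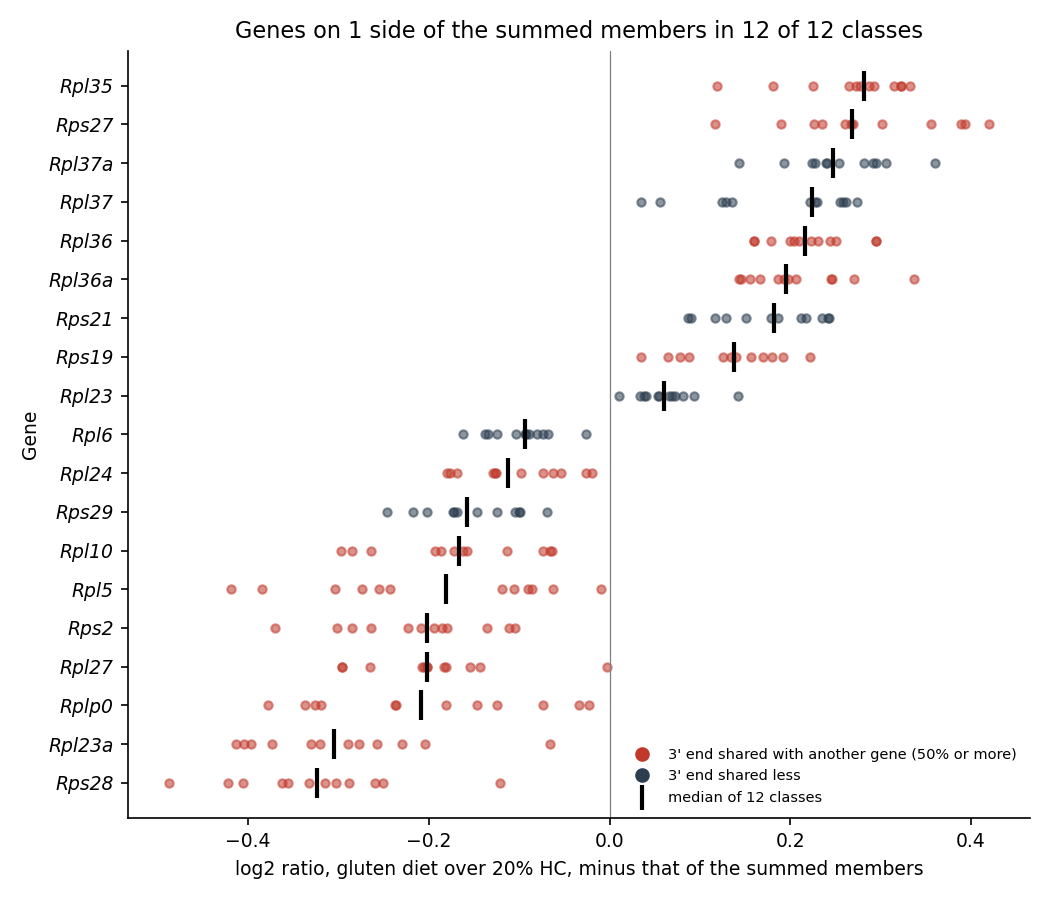
Log2 ratio of gluten over HC alone minus that of the summed ribosomal proteins (x axis) for the 19 genes on 1 side in 12 of 12 classes (y axis). Each point is a class, black bars are medians, and red marks genes that share at least 50% of their transcript end with another gene. Medians run from -0.32 for Rps28 to 0.28 for Rpl35, and 13 of the 19 genes are red.

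Sharing of transcript ends was common among these genes. Shared ends of at least 50% were present in 5 of the 9 genes above, in 8 of the 10 below and in 52 of the 76 genes measured in all classes. With the 53 such genes left out, 12 pairs were 1.25-fold higher and 0 lower, and 2 genes lay above and 2 below the remaining sum in all 12 classes. Some rows of copies lay on 1 side in nearly every class, while those that share ends with Rpl9, Rpl27 and Rpl29 were higher in 5 and lower in 7 classes each. Gm10076, a copy of Rpl41, was higher with gluten in 12 of 12 classes by a median log2 of 0.94, and Rpl41 pooled with it moved from a median of -0.01 to 0.15 relative to the sum. Rps18 pooled with Gm10260 and Gm11361 moved from -0.10 to 0.09. The part of such copies in the other ratios was not tested. The notes name the same Cell Ranger version and genome for both libraries, but the sources used here do not state the annotation or mapping settings of each table, and ratios of genes with shared ends carry that limit.

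Coding length was set beside these ratios too. Over 76 genes the median relative ratio was lower for longer genes, with Pearson's r of -0.27 and Spearman's rho of -0.39, as a description over genes of the same 2 libraries. Of the 10 genes with fewer than 300 coding bases 6 lay above the sum by their median, and of the 21 with over 600 bases 18 lay below it.

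Genes that work with the ribosome were read from lists. Of 17 translation factors, 2 in alpha-like cells and 3 in PP-like cells were at least 1.25-fold higher and 0 lower in either. The backgrounds are 18.6% and 15.6% higher and 9.93% and 13.9% lower, so these counts are not above the background for alpha-like cells and near it for PP-like cells. The sum of the factors had log2 ratios of 0.15 and 0.20, beside 0.18 in both for the ribosomal proteins. In delta-like cells 0 of 17 passed either fold, and the sum was 0.12. Eef1a1 had 4293 and 3582 CPM in alpha-like and 3313 and 2758 in PP-like cells, with ratios of 0.26 in both, and Eef2, the translocase of elongation, had 0.37 and 0.47. Of the 7 ribosomal proteins and partners outside the naming rule, Rps3a1 had 0.22, 0.24 and 0.21 in alpha-like, delta-like and PP-like cells and Fau 0.24, 0.26 and 0.26. Rpl36al was lower in the same classes, by -0.43, -0.55 and -0.49, and in beta-like cells by -0.75.

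Mitochondrial ribosomal proteins, made for the separate ribosome of that organelle, had medians below 0 in alpha-like, delta-like and PP-like cells. The same held in the rest of the 12 classes except macrophage-like cells, at 0.01, with -0.21 in mesenchymal-like and -0.07 in beta-like cells. In alpha-like cells 1 of 77 measured genes was 1.25-fold higher (background 18.6%) and 20 lower (9.93%), with a median log2 of -0.10. In delta-like cells 1 of 74 was higher (12.8%) and 3 lower (11.6%), with a median of -0.03, and in PP-like cells 2 of 61 were higher (15.6%) and 11 lower (13.9%), with a median of -0.15. Nuclear genes of oxidative phosphorylation had medians of -0.03, -0.02 and -0.01 in alpha-like, delta-like and PP-like cells.

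Ribosome biogenesis genes, which act in the nucleolus to make and process ribosomal RNA, were mostly higher with gluten in macrophage-like cells. There 8 of 15 measured genes were 1.25-fold higher with gluten and 0 lower, beside backgrounds of 14.2% and 26.1%, and the median log2 was 0.32 against -0.10 for all genes. Ncl had 454 and 281 CPM, Npm1 881 and 705 and Nop56 79.7 and 50.7. The summed ribosomal proteins in those cells had 0.07. Median depth of macrophage-like cells was 5178 UMIs with gluten and 12384 with HC alone, and its part in these ratios was not tested. In NK-like cells 6 of 6 measured were lower (background 27.2%), with a median of -0.58, although cells there were few, 77 and 85. The count minimum applied to the library with the higher CPM, and the HC-only library was larger there, with 379548 against 234848 UMIs. Genes lower with gluten thus passed more easily, and the part of this in the 6 of 6 and the median was not tested. The sum of all 30 listed genes had a log2 ratio of -0.39 in NK-like cells. In T-like cells 0 of 29 were higher (10.5%) and 7 lower (26.2%), with a median of 0.00. Of the 18 genes of mTOR, Myc and p53 signalling to the ribosome, 4 of 16 measured were higher (18.6%) and 0 lower (9.93%) in alpha-like cells, and 5 of 15 were higher (10.5%) and 5 lower (26.2%) in T-like cells. Counts and backgrounds in macrophage-like and T-like cells carry the same limit of the count minimum.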

How the data were processed

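Each of the 2 libraries has a table of raw UMI counts per gene and cell barcode, deposited by the authors without normalization. The labels' protocols give the 10x Genomics single cell 3' chemistry, and the submitters' processing notes name Cell Ranger 4.0.0 and mm10. For cell calling and the annotation release, the sources used here give no method. GENCODE vM21 gave symbols for 30934 of 31053 identifiers.

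Barcodes with at least 500 UMIs, 200 genes and at most 20% mitochondrial UMIs were kept (7577 and 7565). Scrublet's own threshold marked 3 cells (0.0396%) and 128 (1.69%), so the top 6% by score were removed. Cells were assigned by the mean of their class markers (score at least 0.5, margin 0.3, 2 markers), and acinar-like cells by 10% of UMIs from acinar markers. Near the margin lay 480 and 319 cells just outside and 397 and 309 just inside. T states needed a 3-fold excess of naive over effector UMIs, or the reverse. Classes with at least 50 cells per library were compared.

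UMIs were summed per class and divided by the class total (CPM) or by its ribosomal protein UMIs. Ratios carry exact conditional binomial 95% intervals and shares Clopper-Pearson intervals. Genes needed 50 UMIs or more, in whichever library had the higher CPM, to be measured. PCR copies are removed by UMIs, and intervals cover counting error only. The script was tested on simulated data. Versions were scanpy 1.11.5, scipy 1.17.1 and, for TMM, edgeR 4.0.16 in R 4.3.3.

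Named genes are up to 3 per class and direction whose interval bound is farthest from 0, the 12 that vary most between classes, a fixed set (P-stalk, Rpsa, Rps6, paralogs) and the 10 genes most alike. Genes and lists were chosen with earlier results of these data known. The gate thresholds, the doublet rule, the acinar and T state rules, the length groups and the measure of shared transcript ends were set after seeing the data. Alternatives were scaling, stricter filters, doublets kept, Leiden clusters, cells without acinar RNA, thinning, other gene sets and a lower count minimum. Rps4l had no row of that name. Some genes that the rule names are not reported here.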

Additional observations from a re-analysis of the deposited data

Results flagged for a closer look

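The summed ribosomal protein ratio between the diets differed between alpha-like and T-like cells by 0.27 on the log2 scale, being above 0 in the first and below 0 in the second. This difference was not tested, since each diet has 1 library.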

How the results depend on the processing

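No paired analysis was possible because each diet has 1 library, and leaving out a replicate does not apply. The spread between mice is not measured. Thinning cells to 1 depth moved the summed ratio beyond its counting interval in some classes, in mesenchymal-like cells from -0.07 to 0.11 and in delta-like cells from 0.16 to 0.11. No sign of the 69 named pairs of gene and class changed in 674 values, of which 44 moved beyond their counting interval. These pairs were chosen for bounds far from 0 in the same counts, so a kept sign was likely in advance. Leiden clusters gave no PP-like, cDC1-like or cDC2-like class.

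Log2 ratios of the summed genes in beta-like, alpha-like and T-like cells, in that order, were -0.016, 0.10 and -0.064 without hormone, acinar, immunoglobulin and mitochondrial genes in the total, and -0.00017, 0.15 and -0.054 under TMM. Leiden clusters gave 0.0033, 0.21 and -0.066, and a mean over cells -0.061, 0.12 and -0.14. In alpha-like and T-like cells they were 0.15 and -0.057 under median-of-ratios scaling and 0.19 and -0.071 under the stricter cell filter. Beta-like and T-like cells gave -0.0025 and -0.082 without acinar carriers. Beta-like and alpha-like cells gave 0.012 and 0.20 without genes of shared ends, an alternative added after seeing the data, and -0.019 and 0.18 after thinning. With doublets kept, alpha-like cells gave 0.15.

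The fold of B-like over beta-like cells was 2.77 and 2.69 without the dominant genes, 8.42 and 8.32 under the stricter filter, 7.94 and 7.87 with doublets kept and 8.38 and 8.29 by Leiden clusters. It was 8.20 with HC alone without acinar carriers, 8.36 and 8.32 without genes that have a pseudogene row, 8.82 and 8.83 without shared ends, 7.80 and 7.45 as a mean over cells, and 8.63 and 8.22 after thinning.

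Pairs at least 1.25-fold lower numbered 16 under TMM, 17 under median-of-ratios scaling and 42 with 6 genes added, and Leiden clusters gave 54 higher and 15 lower. Without shared ends there were 12 higher and 0 lower, with 2 genes above and 2 below the sum in every class.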
